A study of Mus with 8 samples.

Results

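C/EBPβ binding was compared between Prep1 down-regulated (P) and control (C) 3T3-L1 cells at day −2, before the adipogenic cocktail was added. Both lists of ChIP-seq peaks were taken whole, and they held 838 C peaks and 1653 P peaks, or 2491 of the 42729 peaks that the series lists over all conditions. 3T3-L1 is a mouse preadipocyte line. C cells had received a lentivirus with a scrambled hairpin and P cells one with a hairpin against Prep1, and both were selected in puromycin, so all cells carry a vector. The cells grew in calf serum without dexamethasone, 3-isobutyl-1-methylxanthine or insulin at this time. Each cell type had 1 ChIP library made with an anti-C/EBPβ antibody and 1 input library made without it. P cells carry a single hairpin, and there was no replicate, so no test between the cell types was possible and no interval given here covers the spread between cultures. Intervals of shares, ratios and fragments cover counting error, and those of medians the spread across sites. The lists hold no expression values, and the lowering of Prep1 itself was not checked here.

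C/EBPβ is a basic leucine zipper transcription factor that acts very early in adipogenesis, upstream of the genes for Pparγ and C/EBPα. It binds largely to enhancers, many of which become crowded with other factors once the hormones are given. Prep1 is a homeodomain factor of the TALE class, which binds DNA together with Pbx partners. The comparison asks whether C/EBPβ occupies other or more sites when Prep1 is low and no inducer has been given.

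The P list was about double the length of the C list, and P peaks were in excess among the strong peaks. The P list also held widths that the C list could not hold, so an excess of narrow P peaks was built in. Dividing the P by the C number gave 1.97 (exact 95% interval 1.81 to 2.15). A peak caller that extends each read to the fragment length does not list a peak shorter than that length, and this length differed between the libraries. The C list began at 215 bp, whereas the P list began at 163 bp. In C cells 130 peaks (15.5%) and in P cells 183 peaks (11.1%) had exactly the shortest width. The median width exceeded the shortest one by 44 bp in the C list and 45 bp in the P list. The background level of each library corresponded to 7.82e+06 C reads and 7.85e+06 P reads, if the genome size used by the peak caller was 2.7e+09 bp.

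Most of the P list lay below the width at which C peaks begin. Of the 1653 P peaks, 917 (55.5%, 95% Wilson interval 53.1 to 57.9) were narrower than 215 bp. The share was 64.4% (61.5 to 67.1) among P-exclusive peaks, defined as P peaks that overlap no C peak by 1 bp or more, and 36.0% (32.0 to 40.2) among common ones. When all 917 were left out, 736 P peaks remained, fewer than the C list, with a ratio of 0.878 (0.794 to 0.971). That cut can remove P peaks alone, so a fall of the ratio was built into it. When each list was instead cut at 52 bp above its own shortest peak, an alternative added after the values were seen, 387 C and 736 P peaks remained, and the ratio was 1.90 (1.68 to 2.16). The effect of fragment length on peak number and that of the cell type cannot be told apart over the lists as a whole.

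**Figure D1:**
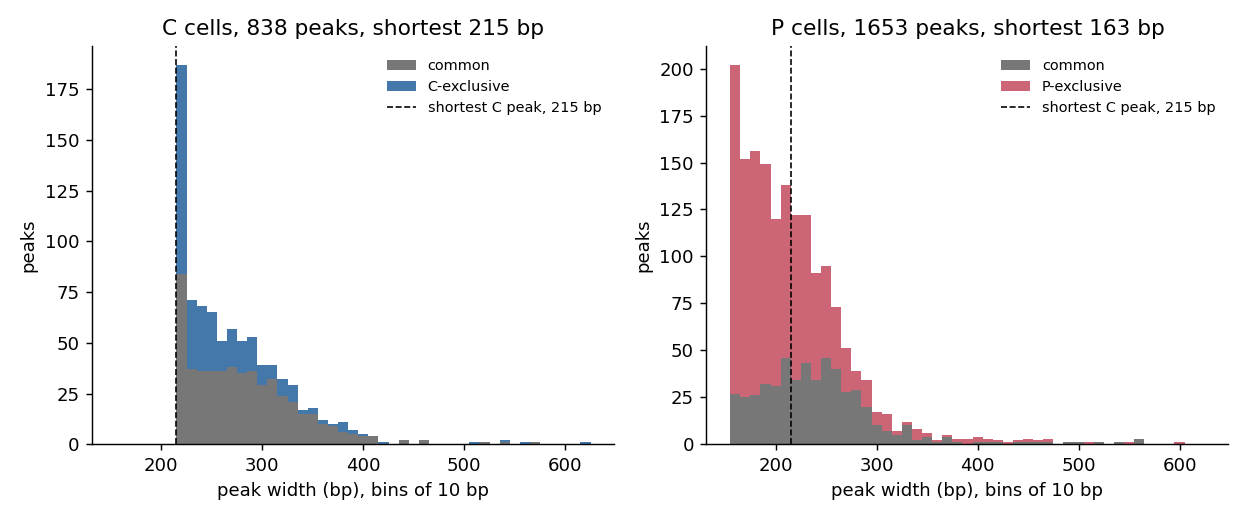
Number of day −2 peaks by width in bins of 10 bp, in C cells (left) and P cells (right), with common peaks in grey and exclusive peaks in colour. The C list begins at 215 bp (dashed line), and 917 of the 1653 P peaks lie to the left of that line.

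Common peaks were sought next. The lists shared 519 sites, and each shared site was 1 C peak against 1 P peak, with no peak overlapping more than 1 partner. Over all 1972 sites, 26.3% were common, 57.5% were P-exclusive and 16.2% were C-exclusive. The exclusive share was 68.6% of P peaks (1134) and 38.1% of C peaks (319). These shares are what the rule of 1 bp gives over the whole lists, and they are the background for the counts by strength below.

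The pairs met closely. The summits, the positions of highest enrichment, lay a median of 13 bp apart (quartiles 6 and 26 bp), and 511 of 519 pairs had summits within 100 bp. The P peak lay wholly inside the C peak in 257 pairs and the C peak inside the P peak in 42. The C peak was wider in 410 pairs (79.0%), with a median difference in width, P minus C, of −42 bp. Pairs at the edge of the rule were few. The smallest overlap was 36 bp, between the C peak chr2:57034502-57034800 (fold enrichment 5.79) and a P peak with a fold enrichment of 14.3, whose summits were 240 bp apart. The next smallest was 111 bp on chromosome 10, where fold enrichment was 6.01 for C and 5.48 for P. Just outside the rule, the P peak chr2:148347569-148347933 (fold enrichment 18.6) and the C peak chr2:148348071-148348390 (7.32) were separated by 137 bp. Among P-exclusive peaks the next closest to a C peak, on chromosome 6, was 320 bp away, with 8.12 for P against 15.7 for C. Also on chromosome 6, the C-exclusive peak chr6:128788382-128788596 lay closer than that to a P peak that starts at 128788857. No exclusive peak lay within 100 bp of the other list.

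In both cell types the peaks without a partner were the weaker ones. Fold enrichment divides the ChIP fragments at the summit by the input background, each with 1 added. Its median was 7.24 (quartiles 6.14 and 8.59) in C-exclusive and 8.69 (7.01 and 11.4) in common C peaks. In P cells it was 9.33 (7.97 and 11.4) in P-exclusive and 12.1 (9.30 and 16.9) in common peaks. Counted as ChIP fragments over the summit, C-exclusive peaks had a median of 15 and common C peaks of 20, while P-exclusive peaks had 18 and common P peaks 25. These counts are small, so single weak peaks rest on about 15 fragments.

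In bands of equal −log10 p, the share of common peaks was higher for C than for P peaks. Pairs are 1 to 1, so the longer list has the lower share by construction, and when the P list was cut to the 838 strongest peaks both shares were 45.6%. Among peaks with a −log10 p of 10 to 15, 153 of 307 C peaks (49.8%, 44.3 to 55.4) and 76 of 500 P peaks (15.2%, 12.3 to 18.6) were common. From 20 to 30 the shares were 81.8% (74.7 to 87.3) of 143 C peaks and 37.2% (32.6 to 42.1) of 392 P peaks. From 30 to 50 they were 93.5% (85.7 to 97.2) of 77 and 63.0% (56.1 to 69.4) of 200. The intervals of the cell types did not overlap in any band between 5 and 50, and at 50 or more they did, with 13 of 13 C peaks and 62 of 71 P peaks common.

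The numbers of peaks also diverged with −log10 p, which a lower background raises at a given number of fragments. The P to C ratio was 0.815 (0.617 to 1.07) for a −log10 p of 5 to 10, 1.63 (1.41 to 1.88) from 10 to 15 and 2.74 (2.26 to 3.34) from 20 to 30. At 50 or more it was 5.46 (3.00 to 10.8). P peaks narrower than 215 bp made up most of the bands below 20, 141 of 392 peaks from 20 to 30, and 5 of 271 from 30. Without them, and with all C peaks kept, the ratio was still 1.76 from 20 to 30, 2.53 from 30 to 50 and 5.46 from 50, and by the one-sided cut it was 0.235, 0.218 and 0.693 in the bands below 20. With both lists cut at 52 bp above their shortest peak it was 1.17 (0.652 to 2.10) from 5 to 10, 0.931 (0.657 to 1.32) from 10 to 15, 1.41 (1.06 to 1.87) from 15 to 20 and 2.20 (1.76 to 2.77) from 20 to 30. The excess of P peaks at a −log10 p of 20 or more was therefore present under both cuts. By fragments at the summit, an alternative added after the values were seen, the ratio was 1.38 (1.16 to 1.65) under 15 fragments. It was 2.41 (2.07 to 2.82) from 20 to 30 and 2.30 (1.78 to 3.00) from 30 to 50. From 50, with 16 C and 46 P peaks, it was 2.88 (1.60 to 5.44), so it diverged less than by −log10 p. Under the cut of both lists it was 0.956 (0.614 to 1.48) below 15 fragments and 3.07 (1.65 to 6.08) from 50. Of all narrower P peaks 20.4% were common, against 45.1% of the wider ones. Between 15 and 30, 26.6% (22.5 to 31.1) of 410 narrower and 34.1% (29.5 to 39.1) of 375 wider P peaks were common, and between 5 and 15 the shares were 15.1% of 502 and 18.9% of 95. From 30, 2 of 5 narrower and 186 of 266 wider P peaks (69.9%) were common.

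**Figure D2:**
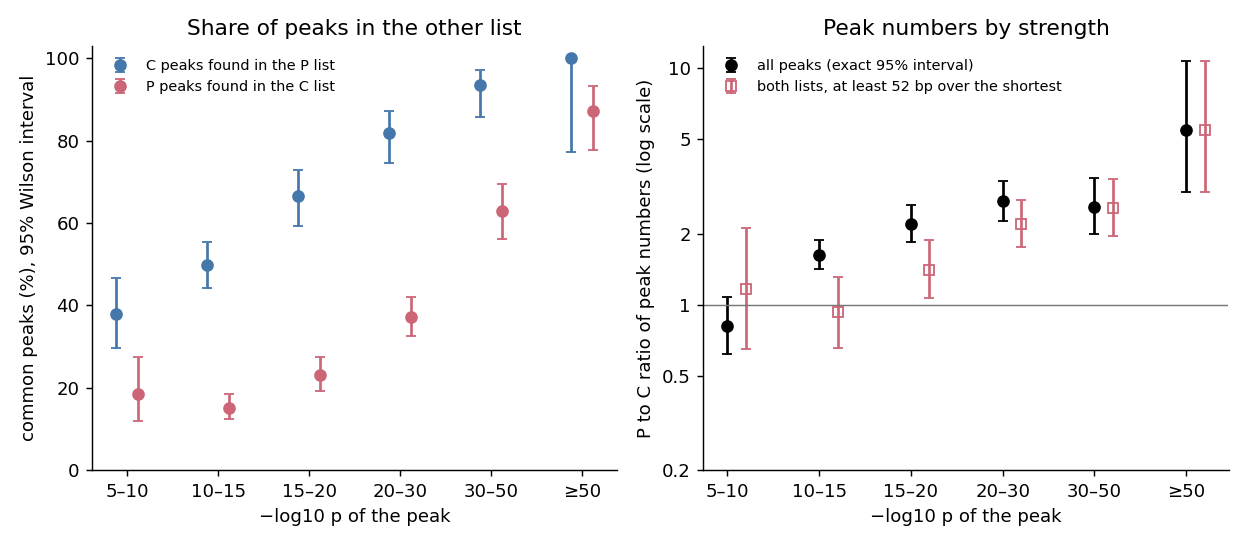
Left, percentage of C and P peaks that overlap a peak of the other list, by −log10 p of the peak, with 95% Wilson intervals. Right, P to C ratio of peak numbers in the same bands on a log scale with exact 95% intervals, for all peaks (filled) and for peaks at least 52 bp wider than the shortest of their own list (open), where the ratio is 1.17 in the lowest band, 0.931 in the next and 5.46 in the highest.

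At the common pairs fold enrichment was mostly higher in P cells. Its log2 P/C ratio had a median of 0.48 (95% interval by order statistics 0.43 to 0.53, quartiles 0.05 and 0.91) over 519 pairs, and 403 pairs (77.6%) were higher in P cells. A 2-fold or larger difference towards P was seen in 104 pairs (20% of those compared) and towards C in 1 pair (0.193%). The ratio was 0.56 for the 233 pairs whose lower −log10 p was under 15, 0.44 for the 221 pairs from 15 to 30 and 0.34 (0.22 to 0.56) for the 65 pairs from 30. Across pairs, the log2 fold enrichment of the cell types had a Pearson correlation of 0.49 (n = 519 pairs, which share both libraries).

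The ratio was made of both of its terms. For summit fragments the log2 P/C median was 0.25 (0.20 to 0.32), and fragments were more numerous in P cells in 348 pairs, fewer in 147 and equal in 24. Counted on fragments, a 2-fold or larger difference was seen in 52 pairs towards P (10.02%) and in 5 towards C (0.963%), against 104 and 1 on fold enrichment. For the input background it was −0.39 (−0.48 to −0.31). The lowest background of a library is its reads times the fragment length over the genome size, and by this alone the log2 ratio of the lowest backgrounds, 0.623 for C and 0.474 for P, was −0.39. With the P background scaled up to the lowest of C, an alternative added after the values were seen, the log2 P/C fold enrichment had a median of 0.27 (0.21 to 0.33), 67.2% of pairs were higher in P, and 61 pairs differed by 2-fold or more towards P and 9 towards C. That scaling can only lower the P/C ratio, and it left the P fragments, counted with the shorter fragment length, as they were. The share of the ratio due to fragment length was therefore not measured. Once divided by the lowest background of its own library, the background had a log2 ratio of 0.00 (−0.08 to 0.08). In the 104 pairs with a 2-fold or larger difference towards P, the median was 20 fragments in C and 34 in P cells, over a background of 1.99 and 0.815 fragments. In the 116 pairs higher in C cells it was 23 and 20 fragments, over 1.08 and 1.14. The groups were formed by the ratio itself, so both differences follow in part from that choice. A background of 1.99 in C cells stands for 2 input fragments, so these ratios rest on few input reads.

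**Figure D3:**
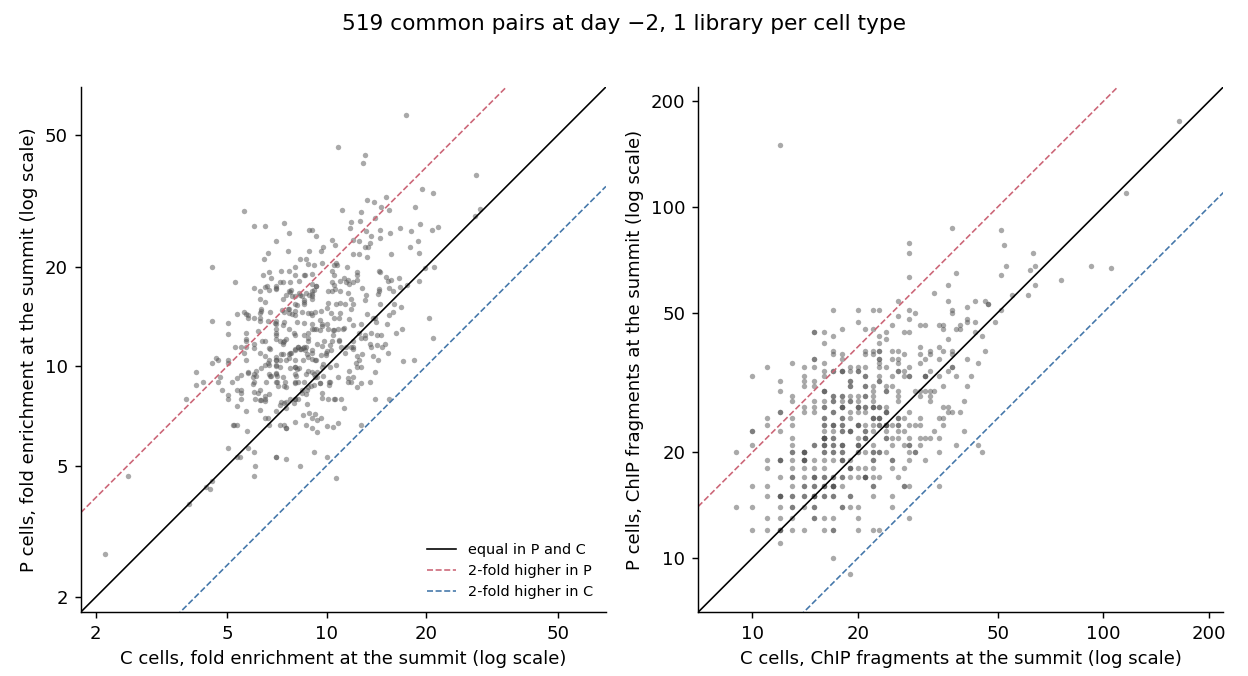
The 519 common pairs at day −2, with C cells on the horizontal and P cells on the vertical axis, both on log scales. Left, fold enrichment at the summit, with 104 pairs on or above the 2-fold line towards P and 1 beyond that towards C. Right, ChIP fragments at the summit, where the points lie nearer to the line of equality and a single pair with 12 fragments in C and 150 in P cells stands apart.

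The strongest shared sites were ranked by the lower −log10 p of the pair, which favours pairs of like strength. At chr2:50542834-50543204 the summit had 76 fragments in C and 62 in P cells, so P had 0.816 times the C fragments (exact interval 0.574 to 1.16). At chr2:61133722-61134106 there were 61 and 56 fragments, and at chr17:71649707-71650086 there were 55 and 56. Fold enrichment at these sites was 28.4, 29.0 and 28.2 for C against 38.0, 29.9 and 28.4 for P. The remaining strong pairs were chr5:20560208-20560563, with 64 and 60 fragments, and chr7:138086772-138087139, with 62 and 66. At these last sites the fold enrichment was 21.7 and 21.0 in C cells against 26.4 and 33.4 for P. The interval of the fragment ratio included 1 at all 5 sites, which does not show that binding was equal. Another strong pair differed more, chr2:105268278-105268623, named after its values were seen, with 51 and 86 fragments and the highest fold enrichment of the P list, 57.6, against 17.4 for C.

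The pairs with the highest P/C ratio of fold enrichment were of another kind. The C peak chr11:76106018-76106277 had a fold enrichment of 5.62 from 27 fragments over a background of 3.99, and its P partner one of 29.5 from 44 fragments over 0.522. The fold enrichment thus differed by 5.25 times and the fragments by 1.63 times. At chr17:80960119-80960456 the fold enrichment was 10.8 and 46.2, from 53 and 68 fragments. The fragments differed most at chr15:62159999-62160218, with 17 and 39 and a ratio of 2.29, and at chr1:169177134-169177427, with 17 and 43 and a ratio of 2.53. These pairs were picked for their ratio, so their values are a description. The fifth was chr16:5130933-5131205, with 25 and 39.

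The 5 pairs lowest in P cells were picked in the same way. Among them the fragments differed most at chr19:3334063-3334405, with 45 in C and 20 in P cells and a ratio of 0.444. Fold enrichment there fell from 18.4 for C to 10.5 for P. The single pair with a 2-fold difference towards C was chr1:170292623-170293081, with a fold enrichment of 10.7 and 4.58, from 31 and 22 fragments. The others, chr1:151946941-151947246, chr9:44152196-44152455 and chr3:129776062-129776340, gave 15.5, 12.7 and 10.02 for C against 7.97, 6.64 and 5.31 for P. By unscaled fold enrichment, pairs lower in P cells were thus fewer and their largest differences smaller than those of pairs higher in P cells. With the P background scaled, 9 pairs differed by 2-fold or more towards C and 61 towards P, and on fragments 5 and 52.

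A pair outside the naming rule is given because it holds the P peak with the highest −log10 p. The P peak chr10:117540353-117540895 had 150 fragments, a fold enrichment of 27.0 and a −log10 p of 166, and its C partner had 12 fragments and a fold enrichment of 7.43. The fragment ratio of 12.5 was the highest among the 519 pairs. The input background there was 9.63 times the lowest in the P library and 1.20 times the lowest in the C library, so the input differed along with the ChIP and its part in the difference was not tested.

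The 5 strongest P-exclusive peaks had more fragments than any of the 5 strongest C-exclusive ones. They were the top of 1134 peaks and the C-exclusive ones the top of 319, and a larger class tends to have a higher top. The first, chr10:106642520-106642820, had 109 fragments and a −log10 p of 93.9, at an input background 12.7 times the lowest of the library. The next were chr17:80181173-80181463 with 52 fragments, chr6:32117746-32118019 with 44, chr2:117865091-117865359 with 49 and chr3:142283180-142283430 with 64. Their fold enrichment was 26.4, 26.6, 24.0 and 16.2. The nearest C peak of day −2 was between 236 kb and 8807 kb away from these 5 sites. At the last site the input background was 6.33 times the lowest, and at the other 3 it was between 1.44 and 2.27 times.

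The 5 strongest C-exclusive peaks had between 25 and 29 fragments. They were chr1:155538234-155538564, chr12:103655918-103656248, chr9:51546497-51546873, chr8:25567943-25568484 and chr3:62877063-62877343, with a fold enrichment of 15.8, 16.6, 14.5, 13.9 and 14.9. Their −log10 p was between 30.2 and 34.2, and no other C-exclusive peak reached 30. In P cells 83 of 1134 exclusive peaks reached that level, against 5 of 319 in C cells. The lower P background raises −log10 p at a given number of fragments. The nearest P peak was 12.1 kb away for the site on chromosome 3 and at least 155 kb away for the others.

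The differing sites were found on every chromosome. P cells had more peaks than C cells on 20 of 20 chromosomes (1 to 19 and X), and the exact interval of each ratio lay above 1. With both lists cut at 52 bp above their shortest peak, P cells again had more peaks on 20 of 20, with ratios from 1.27 to 3.2 and 11 intervals above 1. The cut at 215 bp, which can remove P peaks alone, left P cells ahead on 6 chromosomes. With all peaks, the ratio was lowest on chromosome 5 (1.49, with 61 C and 91 P peaks) and highest on chromosome 16 (3.00, with 23 and 69), with a median over chromosomes of 2.02. Intervals of single chromosomes were wide, and those of chromosomes 5 (1.07 to 2.10) and 16 (1.85 to 5.04) overlapped. The share of all P peaks on a chromosome differed from the share of all C peaks there by at most 2.43 percentage points, on chromosome 6. The median log2 P/C fold enrichment of common pairs, with the background of each library unscaled, was above 0 on every chromosome. It ran from 0.15 on chromosome 7 to 0.80 on chromosome 10. Scaling the P background, which can only lower the ratio, changed the median over all pairs from 0.48 to 0.27, and this was not repeated by chromosome.

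Sharing was lowest on chromosome 10, where 14 of 38 C peaks (36.8%, 23.4 to 52.7) and 14 of 85 P peaks (16.5%, 10.1 to 25.8) were common, against 61.9% and 31.4% of the whole lists. Chromosome 10 also held 13 of the 72 P peaks with an input background of at least 5 times the lowest, 10 of them P-exclusive, and 3 of the 22 such C peaks. The part of the input in the low sharing there was not tested. The highest share of common C peaks was on chromosome 6 (77.8%, 63.7 to 87.5, of 45 peaks), where only 27.1% of the 129 P peaks were common.

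**Figure D4:**
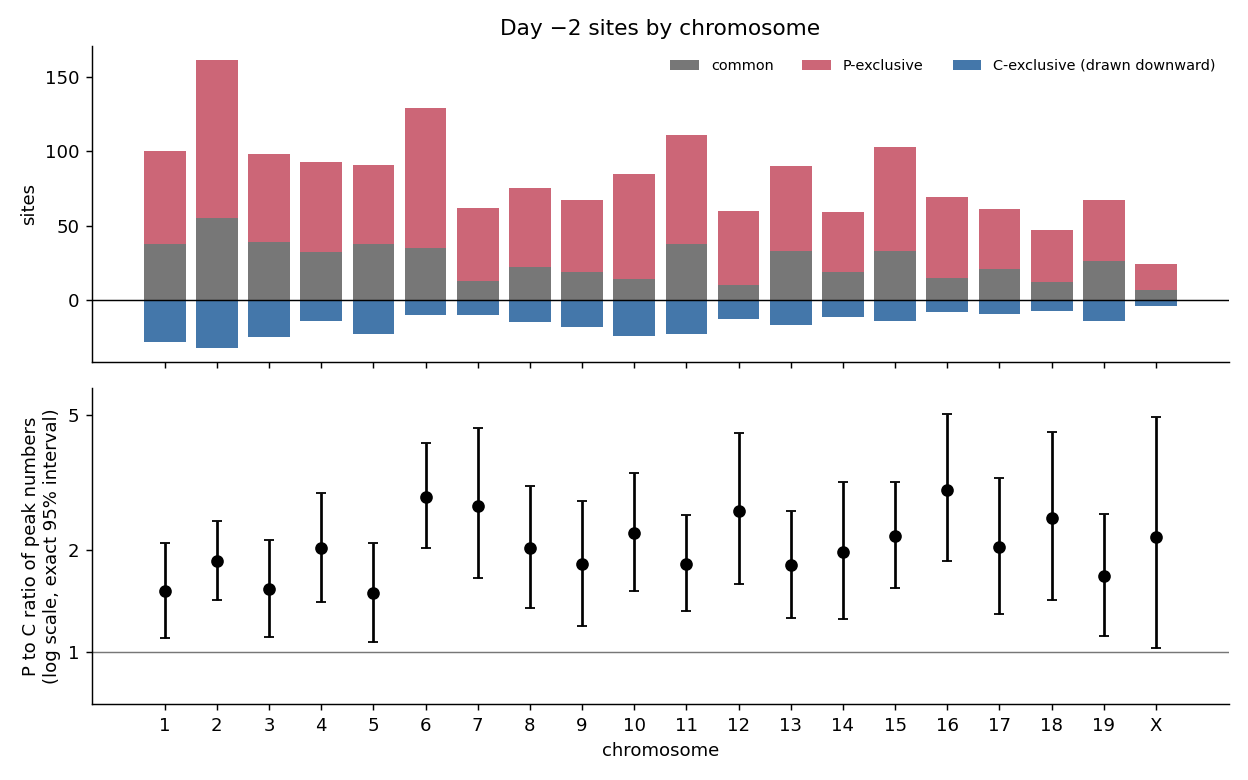
Top, number of common, P-exclusive and C-exclusive sites on each chromosome at day −2, the C-exclusive ones drawn downward. Bottom, P to C ratio of peak numbers on a log scale with its exact 95% interval, which lies above 1 on each of the 20 chromosomes with all peaks, and on 11 of 20 with both lists cut at 52 bp above their shortest peak.

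In windows of 1 Mb, 1054 windows held a site. Both cell types had a peak in 498, P cells alone in 433 and C cells alone in 123. At least 3 P-exclusive sites fell in 85 windows and at least 3 C-exclusive sites in 4. There were 1134 P-exclusive and 319 C-exclusive sites in all, and the larger class fills more windows by construction. With both lists cut at 52 bp above their shortest peak, P cells alone had a peak in 302 windows and C cells alone in 97, and at least 3 exclusive sites fell in 17 windows for P and 1 for C. After the cut at 215 bp, which can remove P peaks alone, the windows of one cell type numbered 189 for P and 279 for C. The windows richest in P-exclusive sites were singled out after these counts were seen. The first lay on chromosome 6 from 115 to 116 Mb, with 7 P peaks and no C peak. Those 7 peaks were weak to moderate, with between 13 and 31 fragments, and the strongest was chr6:115362507-115362748 with a fold enrichment of 12.9. At 4 h all 7 sites were in both lists, as were 86.4% of all P-exclusive sites. The window then held 23 C and 44 P peaks, against 13525 and 26713 in the whole 4 h lists. The next windows were chromosome 15 from 3 to 4 Mb and from 59 to 60 Mb, chromosome 12 from 80 to 81 Mb and chromosome 2 from 117 to 118 Mb, each with 6 P-exclusive, 1 or 2 common and no C-exclusive sites. No gene names are given for these windows, because the gene table at hand is of another genome build.

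At a smaller scale the sites were scattered. Chaining summits that were at most 10 kb apart gave 68 clusters with 144 sites, and 1828 of the 1972 sites stood alone. Of the P-exclusive sites 7.58% (6.18 to 9.27) were in a cluster, of the common sites 8.29% (6.21 to 11.0) and of the C-exclusive sites 4.70% (2.87 to 7.61). These intervals overlapped, so no class was seen to be more clustered than another. Only 25 P-exclusive and 7 C-exclusive sites shared a cluster with a common site. The median distance from a P-exclusive peak to the nearest C peak was 626 kb, with 32 of 1133 within 10 kb, and from a C-exclusive peak to the nearest P peak 354 kb, with 14 of 319 within 10 kb. The longer list is met sooner by construction. Most differing peaks thus had no peak of the other list nearby.

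The clusters with the most P-exclusive sites had 3 each and no C peak. One on chromosome 1 spanned 4.75 kb, with peaks at chr1:172964069-172964265, chr1:172967104-172967337 and chr1:172968647-172968815 and a fold enrichment of 7.97, 12.8 and 8.97. The cluster on chromosome 3, from 96301653 to 96305505, was weaker, with 11 to 13 fragments in each peak. The cluster on chromosome 11, from 68850377 to 68854884, had 11 to 14. The largest cluster of all, with 4 sites, lay on chromosome 6 from 128788382 to 128794068. It held 2 common sites, at 12.8 and 15.7 for C against 41.2 and 18.3 for P, besides a C-exclusive site of 6.85 and a P-exclusive site of 8.12. The cluster on chromosome 5 from 91703412 to 91712366 was the only one with 2 C-exclusive sites, and it held no other site, with a fold enrichment of 7.01 and 6.56. Clusters with 1 C-exclusive site were ranked by their summed −log10 p, which named the one on chromosome 6 and another, on chromosome 17 from 82853239 to 82857620, that joined a C-exclusive site of 7.44 to a common site of 14.5 for C and 24.4 for P.

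The 4 h libraries took no part in forming the classes of day −2, and their shortest peaks were nearly equal, at 164 bp in C and 159 bp in P cells. They were used to ask whether the classes differ in libraries that had not defined them. Where both 4 h lists had a peak, the median log2 P/C fold enrichment at 4 h was 0.80 (0.75 to 0.86) at 980 P-exclusive sites, 0.59 (0.52 to 0.65) at 507 common sites and 0.31 (0.19 to 0.41) at 262 C-exclusive sites. It was 0.61 (0.59 to 0.63) at the 9869 pairs of 4 h without a day −2 peak. The median of P-exclusive sites thus lay above that of these pairs and the median of C-exclusive sites below it. The intervals cover the spread across sites of 1 library each, so they are no test. These pairs were weaker at 4 h and were not matched to the classes. Sites in a single 4 h list have no ratio, which left out 133 P-exclusive and 13 C-exclusive sites in the P list alone. In the C list alone there were 5 and 21. The 4 h ratio was towards P in 88.7% of P-exclusive sites and 66.8% of C-exclusive sites, against 82.0% of the pairs without a day −2 peak. A 2-fold difference towards P was seen in 365 of 980 and 42 of 262, against 2744 of 9869 of those pairs.

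The P-exclusive sites stood above the C-exclusive ones in the bands of day −2 peak strength under 30, and common sites were not split by strength. P-exclusive sites narrower than 215 bp had a 4 h ratio of 0.80 (0.72 to 0.86, n = 599) and wider ones 0.81 (0.73 to 0.91, n = 381). By −log10 p at day −2 the ratio of P-exclusive sites was 0.82 under 15, 0.77 from 15 to 30 and 0.92 (0.77 to 1.04) from 30. For C-exclusive sites it was 0.36 (0.21 to 0.44) under 15 and 0.21 (0.07 to 0.54) from 15 to 30, and the 5 sites from 30 had a median of −0.35 (−0.48 to 1.11), whose interval covers the P-exclusive value. Within the common sites there was little relation. The third with the lowest day −2 ratio had a median 4 h ratio of 0.50 (0.40 to 0.58) and the third with the highest 0.66 (0.54 to 0.78). The Pearson correlation between the day −2 and 4 h ratios was 0.06 across 507 common sites, which share their 4 libraries.

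**Figure D5:**
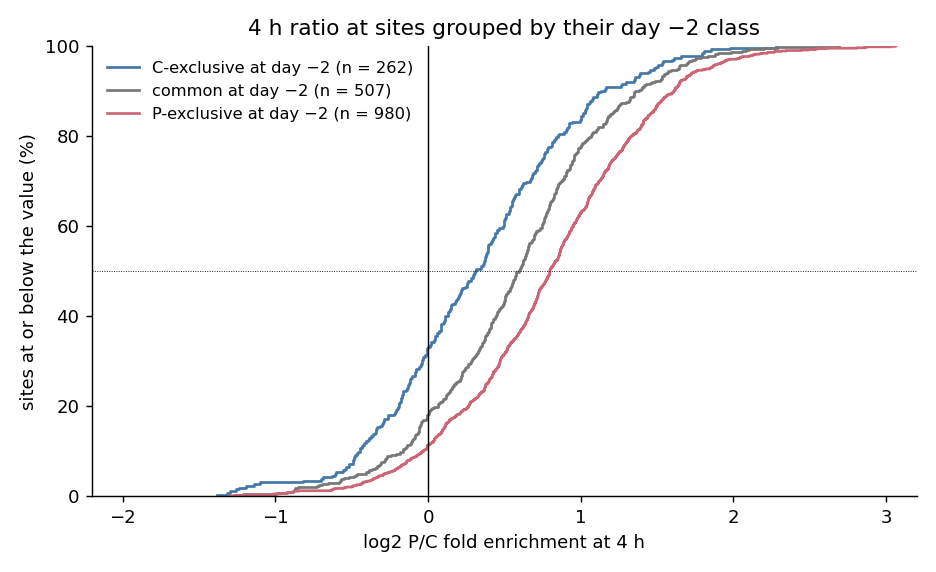
Cumulative share of sites by log2 P/C fold enrichment at 4 h, for sites grouped by their class at day −2 and with a peak in both 4 h lists. The curve of the 980 P-exclusive sites lies to the right of that of the 507 common sites and that of the 262 C-exclusive sites to the left, with medians of 0.80, 0.59 and 0.31.

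Most sites of each class were found in the 4 h lists. The 4 h lists differ in length, with 13525 C and 26713 P peaks, and a longer list holds more sites by construction. The C list of 4 h held 86.9% of P-exclusive, 88.7% of C-exclusive and 97.9% of common sites, and the P list 98.1%, 86.2% and 99.8%. These shares depended on the overlap rule, and with a reciprocal overlap of at least 50% the P list held 70.9% of P-exclusive sites and the C list 74.1%. Fold enrichment was higher at these sites than at sites without a day −2 peak. The median 4 h fold enrichment in C cells was 14.3 at P-exclusive, 14.6 at C-exclusive and 19.96 at common sites, against 9.07 at the pairs without a day −2 peak. In P cells it was 24.96, 18.8 and 31.5, against 14.5. Among the strongest P-exclusive sites, chr17:80181173-80181463 had a 4 h fold enrichment of 26.1 for C and 24.96 for P, and chr3:142283180-142283430 had 40.7 and 82.0. Among the strongest C-exclusive ones, chr1:155538234-155538564 had 33.1 and 24.0, chr12:103655918-103656248 had 17.5 and 12.6, and chr3:62877063-62877343 had 21.0 and 16.5. The other named C-exclusive sites were higher in P, with 20.5 and 27.4 at chr9:51546497-51546873 and 14.7 and 31.7 at chr8:25567943-25568484. Sites found in neither 4 h list numbered 39, of which 16 were P-exclusive, 23 were C-exclusive and none was common. They made up 1.41% (0.870 to 2.28) of P-exclusive and 7.21% (4.85 to 10.6) of C-exclusive sites. Their median −log10 p at day −2 was 13.5 for P and 8.86 for C, with highest values of 21.4 in each class.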

How the data were processed

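C/EBPβ ChIP-seq lists of 3T3-L1 cells were analysed, 1 library per condition. The authors sequenced on an Ion Torrent instrument, aligned reads to mm9 with Bowtie 0.12.8, keeping unique alignments with up to 2 mismatches, removed duplicates, down-sampled to about 8e+06 reads (SAMtools 1.3.1) and called peaks with MACS2 2.0.10.20131028 against input. The deposited fold enrichment is a ratio at the summit, and the deposited −log10 p and q-values come from the authors' peak caller, and the lowest −log10 p was 5.39 in the C and 5.03 in the P list. A site just under that limit is missing from a list, so exclusive does not mean unbound. The display score and the −log10 q were not used.

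Peaks were read with Python 3.11.15 and pandas 2.3.3. Coordinates are mm9, counted from 1. Fragments and background at each summit were worked back from each peak's deposited values (scipy 1.17.1), with a whole number of fragments for 100% of peaks within 0.005 and a ChIP scaling of 0.9963 in P cells, and the recovery was tested on simulated data. Medians have distribution-free intervals. Named sites follow a rule: the 5 strongest peaks of each class, the 5 highest and 5 lowest pairs, the 3 clusters richest in each exclusive class (ties by summed −log10 p), and the 2 cases on each side of the overlap rule. Outside the overlap rule, the cases were the P-exclusive peaks nearest to a C peak. Members and rules were chosen with earlier results of these data known. Alternatives are given in the closing section. Peak names in the day −2 lists carry a tag of 0 h, which differs from the labelled day. Motifs and gene names were not analysed here, because no mm9 genome was at hand.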

Additional observations from a re-analysis of the deposited data

Results flagged for a closer look

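The input libraries, which served as background for peak calling, held a signal of their own at some sites, given here as multiples of the lowest background of the same library. It was at least 5 times the lowest at 72 P peaks (4.36%) and 22 C peaks (2.63%). The sites with the highest multiples are named first. On chromosome 10 the C peaks from 116985583 to 116985836 and from 117183447 to 117183685 had an input background of 86.4 and 104 times the lowest, and the P peaks from 116985631 to 116985843 and from 117183446 to 117183692 of 84.4 and 78.0 times. A P-exclusive peak from 116984378 to 116984790 had 84.4 times. On chromosome 2 the C peaks from 77789539 to 77789832 and from 77813721 to 77813990 had 36.8 and 37.5 times, their P partners 31.6 and 35.9 times, and a P-exclusive peak from 77764172 to 77764356 had 35.1 times. At these 4 common sites the input was raised in both cell types. At the strongest P-exclusive peak, chr10:106642520-106642820, it was 12.7 times the lowest in P cells, and the C list had no peak there to compare.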

How the results depend on the processing

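Of 122 values recomputed under 13 settings, 81 lay inside the 95% interval of the main value (numbers of peaks: differed by under 1.5 times), 40 lay outside and 1 turned its direction. That was the P to C ratio of peak numbers, 0.878 once P peaks below the shortest C width were dropped, which can remove P peaks alone. With each list cut at the same width above its shortest peak, chosen after seeing the data, 387 C and 736 P peaks remained and the ratio was 1.90. The P background scaled to the lowest of C, also chosen later, gave a median log2 fold ratio of 0.27 and 67.2% of pairs higher in P. This scaling can only lower the ratio, since the P fragments were left unscaled. The cut at the shortest C width left 736 P peaks, with 39.6% of C peaks and 45.1% of P peaks common, a median log2 fold ratio of 0.66, 85.2% of pairs higher in P and 4.95% of P-exclusive sites in a cluster, and, chosen after seeing the data, 6 in place of 20 chromosomes with more P peaks. In the C list of 4 h it gave 94.3% of P-exclusive and 99.1% of common sites, in the P list of 4 h 100% of P-exclusive, 91.1% of C-exclusive and 100% of common sites, and a 4 h ratio of 0.44 at C-exclusive sites, because P peaks left out turn their C partners into C-exclusive sites. A −log10 p of at least 10 gave a P to C ratio of 2.16 and found 94.1% and 89.8% of C-exclusive sites in the C and P lists of 4 h.

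With all peaks and an overlap of 1 bp, the C list of 4 h held 86.9% of P-exclusive, 88.7% of C-exclusive and 97.9% of common sites, and the P list 98.1%, 86.2% and 99.8%. With a reciprocal overlap of at least 50%, the C list held 74.1% of P-exclusive, 79.4% of C-exclusive and 87.8% of common sites, and the P list 70.9%, 75.5% and 79.7%, so the order of the lists turned for P-exclusive and common sites. With summits within 100 bp, the C list held 83.6% of P-exclusive and 83.5% of C-exclusive sites, and the P list 94.4% of P-exclusive and 98.6% of common sites. Lists of equal length had fewer common C peaks, 45.6%, and more common P peaks, 45.6%. Fragments in place of fold enrichment gave a median log2 ratio of 0.25 and 67.1% of pairs higher in P, and −log10 p gave 73.6%. A gap of 5 kb put 5.73% of P-exclusive and 6.17% of common sites in a cluster, and a gap of 20 kb 13.4% of P-exclusive, 10.7% of C-exclusive and 14.1% of common sites. The cause was not tested for the other changes. No paired analysis was possible because each condition has 1 library, and for the same reason none could be left out.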
